A study of Rattus norvegicus with 28 samples.

Results

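The comparison set NRK-49F cells treated with TGF-β1 against untreated NRK-49F cells. NRK-49F is an established fibroblast line from rat kidney, and TGF-β1 is the cytokine used to turn such cells into myofibroblasts, the contractile, matrix-making cells of kidney fibrosis. Polyadenylated RNA was sequenced from 2 libraries of TGF-β cells and 2 libraries of control cells. TGF-β1 was given at 5 ng per uL, the unit that the labels print, for 48 h, and the labels give no time for the control libraries. Cells of both groups were grown in 10% serum and starved in 0.2% serum for 24 h. The genes described are those with at least 1 FPKM (fragments per kilobase of gene per unit of library size, a level scaled to both) in at least 2 of these 4 libraries, which are 11734 of the 30178 genes in the deposited table. Of the genes just inside this limit, Mns1 and Dnd1 had a second highest value of 1.0006 and 1.0023 FPKM, and just outside it Tmod1 had 0.9985 FPKM. The 2 libraries of 1 group can meet the limit alone. For a low gene that entered so, the direction of change is partly set by the limit. The table also holds 2 libraries of cells under TGF-β and methionine restriction (MetR, methionine at 30 uM, with 200 uM in its control medium) and 2 of cells under TGF-β and a small interfering RNA against Hoxc8 (siHoxc8). These entered the fit only to estimate the spread, and 20 chromatin samples of the series were not analysed here.

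TGF-β binds a pair of serine/threonine kinase receptors at the cell surface, which phosphorylate Smad2 and Smad3, and these enter the nucleus with Smad4 to switch genes on and off together with other factors. In fibroblasts the cytokine is known for inducing smooth muscle actin, stress fibres, large adhesions to the matrix and matrix secretion. Myofibroblasts also send signals of their own, as growth factors, cytokines and antagonists of other pathways. The gene lists below cover such roles and general cell machinery, and were chosen with earlier results of these data known.

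The whole reads recovered from the values numbered 16212639 and 16394370 in the TGF-β libraries and 17931617 and 17750827 in the control libraries. The SD between replicates was 0.223 on the log2 scale in TGF-β cells and 0.177 in control cells, and 141 of the 11734 genes in TGF-β cells and 108 in control cells lay at least 2-fold apart between replicates. The difference between the TGF-β replicates moved with gene length, with a median of -0.188 (replicate 1 minus replicate 2, log2) among the 2934 shortest genes (up to 1385 bases) and 0.114 among the 2931 longest (at least 3524 bases), where the control replicates gave -0.00793 and 0.016. The median change with TGF-β moved with length too, being -0.124 among the shortest and -0.303 among the longest, and the part of length in the results was not tested beyond a fit with the length trend removed. Nothing in the labels tells whether replicates were separate cultures. A p-value here rests on the spread between replicates in all 4 groups of the fit, which may be technical. The SD was 0.307 with TGF-β and MetR and 0.186 with TGF-β and siHoxc8. Replicates of those groups that lie far apart thus widen the SE of a gene.

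The labelled cell type was checked against markers. Of 19 fibroblast genes in the table, 14 passed the limit, among them Vim (vimentin, an intermediate filament protein of mesenchymal cells) at 5256 and 6204 FPKM in TGF-β cells and 2133 and 2082 FPKM in control cells, and Bgn (the matrix proteoglycan biglycan) at 2182 and 2069 FPKM in TGF-β cells and 2302 and 2250.1 FPKM in control cells. Of the 14, 4 were called raised and 4 lowered by the test described below, and the lowered ones were Col6a2, Pdgfra, Pdgfrb and Ddr2. Thy1, Tcf21 and Foxd1, which mark many kidney fibroblasts, were listed at 0 in all 4 libraries. The values came out as whole reads, so a listed 0 means 0 counted reads. It need not mean that the RNA was absent, since 2 ribosomal protein genes, which every cell uses, were also listed at 0 in all 4. Whether this holds for Thy1, Tcf21 and Foxd1 was not tested. Of 20 kidney epithelial genes 3 passed, with a summed level of 197 and 228 FPKM in TGF-β cells and 243 and 241 FPKM in control cells, and Epcam, Umod, Slc12a1 and Aqp2 were listed at 0 in all 4 libraries. Krt8, a keratin, held most of that sum with 194 and 225 FPKM in TGF-β cells and 238 and 236 FPKM in control cells (-0.18 ± 0.11, not called, and -0.282 and called lowered after quantile normalization), and Aqp1, a water channel, was lowered (-1.36 ± 0.16). Of 15 endothelial genes 3 passed, with a sum of 79.8 and 78.4 FPKM in TGF-β cells and 63.9 and 66.02 FPKM in control cells, and Kdr, Tie1 and Cldn5 were listed at 0. Erg, a transcription factor of endothelium, was raised (1.19 ± 0.33, adjusted p = 0.0264), a call that ended with no filter on low values (adjusted p = 0.0684) and without TGF-β replicate 1 or 2 (0.115 and 0.092) or control replicate 1 or 2 (0.109 and 0.1). Of 17 smooth muscle, pericyte and mesangial genes 5 passed, with a sum of 164 and 142 FPKM in TGF-β cells and 54.9 and 61.9 FPKM in control cells, and Rgs5, Kcnj8 and Abcc9 were listed at 0. Pdzrn3, a ubiquitin ligase, held most of this sum with 139 and 118 FPKM in TGF-β cells and 30.8 and 35.6 FPKM in control cells and was raised (1.92 ± 0.19), as was Actg2, an actin of smooth muscle, at 1.52 and 1.16 FPKM in TGF-β cells and 0 and 0.0793 FPKM in control cells (1.17 ± 0.17). Actg2 passed the limit only through its TGF-β libraries. Notch3, a receptor of mural cells, stood at 0.278 and 0.292 FPKM in TGF-β cells and 1.555 and 1.417 FPKM in control cells. It passed only through its control libraries and was lowered (-0.95 ± 0.19). Myh11, smooth muscle myosin, was lowered too (-0.72 ± 0.18). Its call ended after quantile normalization (adjusted p = 0.108) and with the length trend removed (0.0904). The call also ended without TGF-β replicate 2 (change -0.568) and without control replicate 1 (-0.61). Of 18 leukocyte genes 2 passed, with a sum of 44.5 and 54.98 FPKM in TGF-β cells and 38.7 and 35.5 FPKM in control cells, and Ptprc, Adgre1, Lyz2 and Tyrobp were listed at 0. Among 17 cartilage, bone and tendon genes 6 passed, Sox9, Runx2 and Scx among them. Their sum was 1404 and 1855 FPKM in TGF-β cells and 936.6 and 877.6 FPKM in control cells, most of it from Spp1. Among 13 adipocyte genes 4 passed, with a sum of 11.53 and 11.88 FPKM in TGF-β cells and 13.89 and 14.6 FPKM in control cells. The part of these markers in the results was not tested. Of 19 skeletal and heart muscle genes none passed in these 4 libraries, and their summed level was 1.204 and 1.74 FPKM in TGF-β cells and 2.42 and 1.13 FPKM in control cells.

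Each change below is a difference of log2(FPKM + 1), TGF-β minus control, with its SE, from limma with Benjamini-Hochberg adjustment over the 12315 genes tested, and a gene is called at an adjusted p under 0.05. Of the 11734 genes 1244 (10.6%) were called raised and 3499 (29.8%) lowered, against 10.3% and 28.6% of all genes tested, and 6991 were not called. These shares, 10.6% and 29.8%, are the background for the gene groups below. At least 2-fold changes were called for 340 raised (2.9%) and 943 lowered genes (8.04%), at least 4-fold changes for 61 raised (0.52%) and 115 lowered genes (0.98%), and at least 8-fold changes for 15 (0.128%) and 29 (0.247%). Both TGF-β libraries lay above both control libraries for 2705 genes (23.1%) and below both for 6332 (54%), and the groups overlapped for 2697 (23%). The balance depended on how libraries were scaled. The median change was -0.199 as deposited, and median ratio rescaling, which moved the median of all tested genes by 0.19, gave 2240 genes raised against 2123 lowered. Quantile normalization gave 2032 raised and 2096 lowered. The balance also differed with level. Among 1768 genes with a mean above 50 FPKM 22.3% were raised and 18% lowered, against 7.41% and 34.5% of the 2849 genes with a mean under 5 FPKM. The raised genes together held 27.4% and 27.3% of all FPKM in TGF-β cells, against 14.7% and 14.8% in control cells, and the 20 highest genes of a library held 13.1% and 13.3% in TGF-β cells, against 10.3% and 10.4% in control cells. In such bulk libraries fewer cells of a kind and less RNA per cell cannot be told apart.

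**Figure D1:**
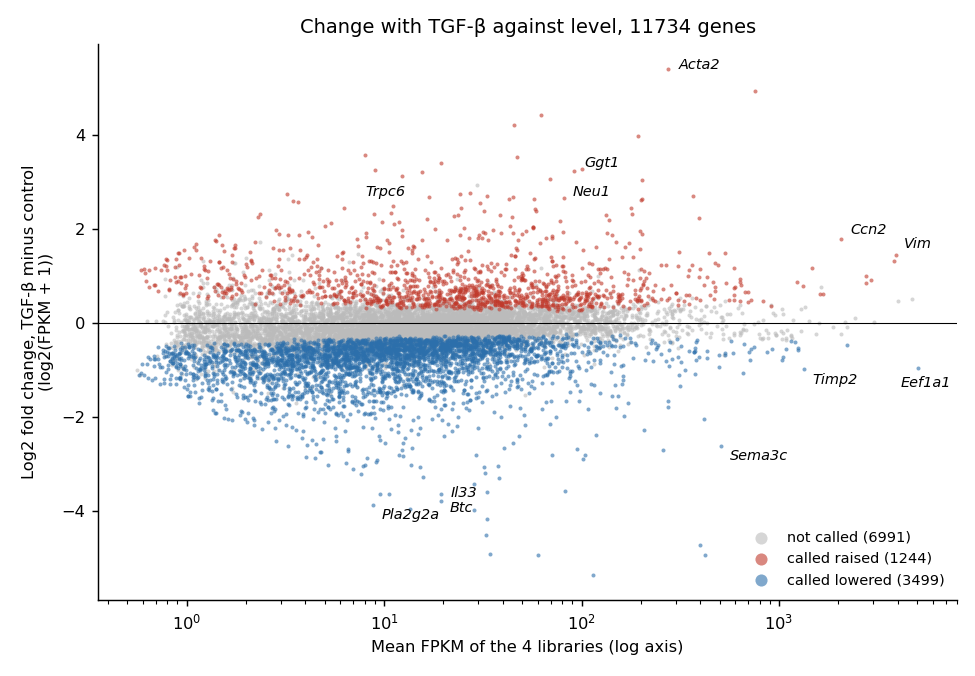
Log2 fold change (TGF-β minus control, log2(FPKM + 1)) against the mean FPKM of the 4 libraries (log axis) for each of the 11734 genes, coloured by call. The raised genes thicken to the right, where 22.3% of genes above 50 FPKM were raised, and the lowered genes to the left, where 34.5% of genes under 5 FPKM were lowered.

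Acta2, the smooth muscle actin that defines myofibroblasts, stood at 527 and 550.5 FPKM in TGF-β cells, against 12.5 and 11.2 FPKM in control cells. Its change was the largest of the 11734 in this fit (5.39 ± 0.20, adjusted p = 1.18e-05). The 250 bases before its RefSeq start (build GRCr8, chr1:241172504-241172753, minus strand) are shown because Smad proteins are known to bind the letters CAGACA, and capitals mark the 1 match of these letters on either strand, 14 to 9 bases before the start. These letters were in 16.3% of genes raised at least 2-fold and in 16.9% of all promoters. The TEAD site CATTCC also matches, 196 to 191 bases before the start, and is not in capitals. The strict form of the CArG box searched below has no match here. Near forms of that box, such as ccctatatgg and ccttgtttgg in this sequence, were not counted.

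Acta2: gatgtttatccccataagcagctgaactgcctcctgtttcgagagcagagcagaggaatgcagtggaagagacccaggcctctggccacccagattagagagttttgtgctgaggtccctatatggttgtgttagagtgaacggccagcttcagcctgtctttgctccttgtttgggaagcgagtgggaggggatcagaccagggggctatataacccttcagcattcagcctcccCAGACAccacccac

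Several other large rises were those of enzymes, a channel and regulators of signalling. Ggt1, the gamma-glutamyl transferase that cleaves extracellular glutathione, stood at 164 and 167 FPKM in TGF-β cells and 16.5 and 16.9 FPKM in control cells (3.24 ± 0.08, adjusted p = 4.23e-06). Trpc6, a calcium channel of the plasma membrane, stood at 21.9 and 23.6 FPKM in TGF-β cells and 1.88 and 1.59 FPKM in control cells (3.12 ± 0.20, adjusted p = 7.46e-05). Neu1, the lysosomal sialidase, stood at 137 and 145 FPKM in TGF-β cells and 21.4 and 21.7 FPKM in control cells (2.65 ± 0.09, adjusted p = 7.06e-06). In each of these the libraries of a group lay close together and the groups were far apart. Fst, the secreted activin antagonist follistatin, rose (2.73 ± 0.18), as did Phlda1 (3.05 ± 0.12), Nedd9, a scaffold of adhesion signalling (2.75 ± 0.12), and Enc1, an actin-binding protein (2.68 ± 0.09). Fbxw7, the substrate receptor of a ubiquitin ligase that marks cyclin E and Myc for destruction, stood at 19.6 and 19.6 FPKM in TGF-β cells and 2.62 and 2.73 FPKM in control cells. Klhl40, known from muscle, reached 7.18 and 5.597 FPKM in TGF-β cells, against 0.0738 and 0.124 FPKM in control cells. Lmcd1, a LIM protein also known from muscle, reached 5.46 and 7.86 FPKM in TGF-β cells, against 0.369 and 0.1696 FPKM in control cells. Both were thus near 0 without the cytokine. Lama1, a laminin chain of basement membranes, stood at 7.42 and 6.48 FPKM in TGF-β cells and 0.3903 and 0.298 FPKM in control cells. For such low genes the fold on the log2(FPKM + 1) scale is understated, and limma-voom on the recovered reads gave 5.87 for Klhl40 and 4.33 for Lama1, against 2.74 and 2.56.

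Among the largest falls were secreted and signalling proteins. Pla2g2a, a secreted phospholipase A2, stood at 0.436 and 0.0718 FPKM in TGF-β cells, against 19.3 and 15.4 FPKM in control cells. Btc (betacellulin, a ligand of the EGF receptor family) stood at 1.499 and 1.95 FPKM in TGF-β cells, against 41.04 and 32.8 FPKM in control cells. Gas1, a membrane protein first known from growth arrest, stood at 3.75 and 4.29 FPKM in TGF-β cells, against 57.6 and 49.03 FPKM in control cells. All were called (-3.88, -3.79 and -3.43). A call and groups that do not overlap were conditions for naming these falls. Plpp3, a phosphatase that degrades lysophosphatidic acid, fell (-3.19 ± 0.24), as did Slc4a4, a sodium bicarbonate cotransporter (-3.02 ± 0.23), and Tspan8, a tetraspanin (-3.61 ± 0.17). Il19, a cytokine of the interleukin 10 family (-3.08 ± 0.19), and Il20rb, a subunit of its receptor (-2.92 ± 0.17), fell together. Dscc1, which helps load the replication clamp, stood at 0.934 and 1.5 FPKM in TGF-β cells and 16.04 and 14.5 FPKM in control cells (-2.89 ± 0.15). Pdcd5, a gene linked to apoptosis, stood at 1.03 and 0.464 FPKM in TGF-β cells and 20.3 and 20.8 FPKM in control cells (-3.64 ± 0.27).

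**Figure D2:**
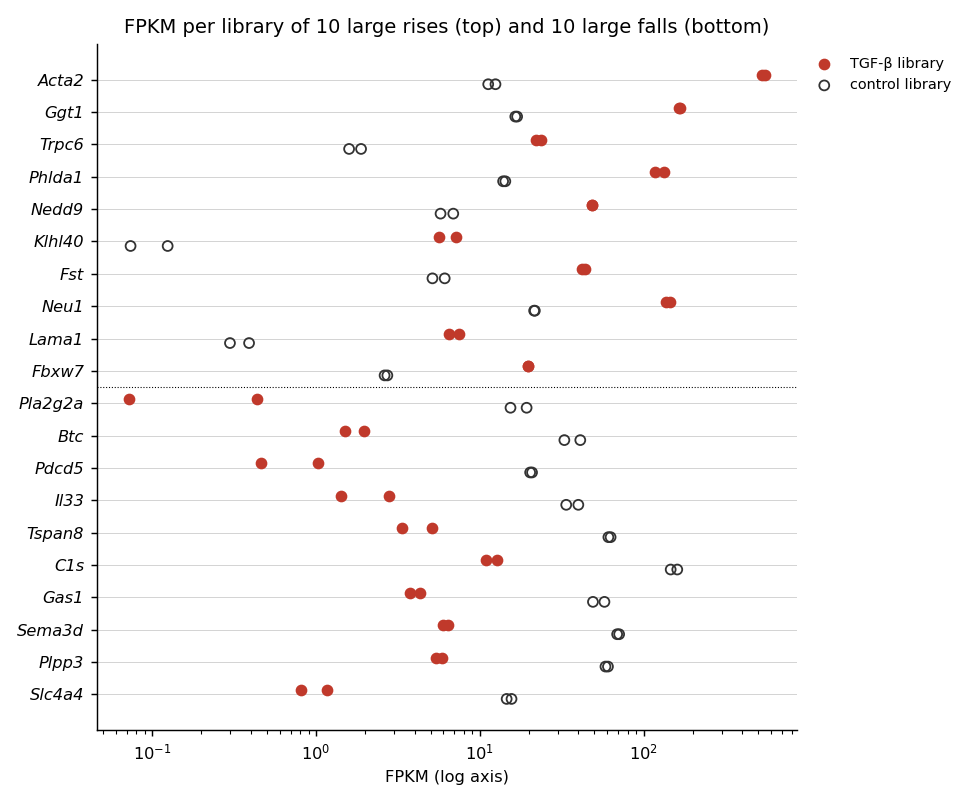
FPKM (log axis) of 20 genes in each of the 2 TGF-β libraries (filled circles) and the 2 control libraries (open circles), with 10 of the largest rises above and 10 of the largest falls below. No TGF-β library overlaps a control library for any of these genes, which was a condition for naming them. Only the TGF-β libraries of Pla2g2a lie more than 3-fold apart (0.436 and 0.0718 FPKM). The gap is wide, as for Trpc6 (21.9 and 23.6 FPKM in TGF-β cells, 1.88 and 1.59 FPKM in control cells) and Btc (1.499 and 1.95 FPKM in TGF-β cells, 41.04 and 32.8 FPKM in control cells).

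By level, cytoskeletal and matricellular proteins were among the largest gains. Vim gained most FPKM of the 11734 genes and was called raised (1.44 ± 0.13). Ccn2, the matricellular protein also called connective tissue growth factor, stood at 3058 and 3342 FPKM in TGF-β cells and 947 and 926 FPKM in control cells. Actg1, the cytoplasmic gamma actin, stood at 3502 and 3861 FPKM in TGF-β cells and 1856 and 1821 FPKM in control cells (0.9998 ± 0.12), and Spp1, the secreted phosphoprotein osteopontin, at 1375 and 1828 FPKM in TGF-β cells and 898 and 842 FPKM in control cells (0.87 ± 0.14). The largest loss was that of Eef1a1, the elongation factor that brings tRNA to the ribosome, with 3214 and 3705 FPKM in TGF-β cells and 6693 and 6695 FPKM in control cells (-0.96 ± 0.13, adjusted p = 0.00126), a call that ended with no filter on low values (adjusted p = 0.0671). Secreted proteins were among the next. Timp2, an inhibitor of matrix metalloproteinases, stood at 869.8 and 908 FPKM in TGF-β cells and 1735 and 1816 FPKM in control cells. Clu, the chaperone clusterin, stood at 396 and 456 FPKM in TGF-β cells and 884 and 893 FPKM in control cells. Serpine2, an inhibitor of thrombin, stood at 141 and 183 FPKM in TGF-β cells and 696 and 647 FPKM in control cells.

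Proteins of focal adhesions, the plaques that join stress fibres to the matrix, were raised in 24 and lowered in 9 of 44 cases, with a median change of 0.55, where 10.6% of all genes were raised and 29.8% lowered. Csrp2, a LIM protein of actin filaments, stood at 92.7 and 106 FPKM in TGF-β cells and 15.2 and 15.1 FPKM in control cells (2.63 ± 0.22). Pdlim7 (1.61 ± 0.10) and Actn1 (1.58 ± 0.10), which bundles actin filaments, rose with it, whereas Ptk2b, a focal adhesion kinase homologue, stood at 0.141 and 0.124 FPKM in TGF-β cells and 3.02 and 3.08 FPKM in control cells and fell (-1.84 ± 0.22), as did Tln2, a talin (-1.48 ± 0.21). The integrins, which reach through the membrane to the matrix, were raised in 4 and lowered in 4 of 11 cases. Itgav, the alpha chain of the integrins that release latent TGF-β, stood at 131 and 105 FPKM in TGF-β cells and 63.8 and 61.7 FPKM in control cells (0.89 ± 0.11), and Itga7, a laminin receptor, fell (-1.001 ± 0.15). Of 24 genes of the SRF and YAP pathways 8 rose and 6 fell, including Vgll3, a partner of TEAD factors (2.01 ± 0.15), and Srf itself (0.91 ± 0.11). The median of this list lay on both sides of 0 over the scalings tried, and after median ratio rescaling 10 rose and 3 fell.

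The CArG box is the motif that serum response factor binds in promoters of actin and adhesion genes. It was searched on both strands as CCNNNNNNGG, where each N was taken as A or T, and looser forms were not counted. It was found in the 250 bases before the start of 4 of 35 focal adhesion genes with an entry in the RefSeq table, 11.4%, against 1.15% of the 8454 genes described here that have one and 1.5% of all 27457 promoters. The box was in 1.72% of genes raised at least 2-fold and in 1.86% of those lowered at least 2-fold. Fhl2 and Fblim1, LIM proteins that rose (1.13 ± 0.21 and 0.96 ± 0.20, the second with an adjusted p of 0.0617 without control replicate 1 and 0.0533 without TGF-β replicate 1, where its call ended), hold it 95 to 86 and 60 to 51 bases before the start, shown in capitals (build GRCr8, chr9:52954541-52954790 and chr5:159196817-159197066, both on the minus strand). The other matches are those of Fhl1, which was not called (0.79 ± 0.28, adjusted p = 0.0607 in limma), and Svil, which fell (-1.17 ± 0.11). Fhl1 was called raised under other settings. Its adjusted p was 0.0353 after median ratio rescaling, 0.037 with the length trend removed and 0.0343 by limma-voom. In a limma fit of the 4 TGF-β and control libraries alone it was 0.0023.

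Fhl2: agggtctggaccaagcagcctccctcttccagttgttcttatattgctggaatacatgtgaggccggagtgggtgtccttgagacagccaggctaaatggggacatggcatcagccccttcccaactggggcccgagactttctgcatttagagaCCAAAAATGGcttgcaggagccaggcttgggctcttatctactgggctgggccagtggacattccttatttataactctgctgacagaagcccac

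Fblim1: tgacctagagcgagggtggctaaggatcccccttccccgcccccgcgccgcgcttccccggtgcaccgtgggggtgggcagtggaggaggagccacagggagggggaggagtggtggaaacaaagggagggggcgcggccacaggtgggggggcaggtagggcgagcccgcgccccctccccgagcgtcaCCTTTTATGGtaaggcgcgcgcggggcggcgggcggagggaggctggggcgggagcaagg

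Enzymes that cut the matrix and their inhibitors moved both ways. Of 30 proteases 8 rose and 13 fell. Adamts1, which cleaves versican and aggrecan, stood at 356 and 341 FPKM in TGF-β cells and 51.9 and 58.9 FPKM in control cells (2.63 ± 0.40), and Adamts12 rose as well (1.99 ± 0.30). Adam12, a membrane-bound metalloproteinase, stood at 73.9 and 42.96 FPKM in TGF-β cells and 8.28 and 7.42 FPKM in control cells (2.698 ± 0.27). Adamts5, the main aggrecanase of cartilage, stood at 1.105 and 0.882 FPKM in TGF-β cells and 12.2 and 12.2 FPKM in control cells (-2.72 ± 0.25), and Mmp3 (stromelysin) fell by a similar amount (-2.23 ± 0.28). Of 14 inhibitors 5 rose and 6 fell. Timp3, the inhibitor that stays bound to the matrix, stood at 239.7 and 204 FPKM in TGF-β cells and 45.5 and 43.9 FPKM in control cells (2.28 ± 0.19), while Timp2 fell (-0.997 ± 0.15). Serpini1 (neuroserpin) rose (2.299 ± 0.22) and Serpine2 fell (-2.06 ± 0.16). The medians of both lists lay on both sides of 0 over the scalings tried, and after median ratio rescaling 8 proteases rose and 7 fell, against 7 and 4 inhibitors.

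Of 13 genes of elastic fibres and latent TGF-β binding 5 rose (38.5%) and 2 fell (15.4%), with a median change of 0.35. Ltbp1, which tethers latent TGF-β to the matrix, stood at 101 and 103 FPKM in TGF-β cells and 41.1 and 39.4 FPKM in control cells (1.32 ± 0.18). Ltbp2, its relative that does not bind TGF-β, stood at 468 and 390.5 FPKM in TGF-β cells and 186 and 186 FPKM in control cells (1.199 ± 0.16). Among 19 proteoglycan and hyaluronan genes 5 rose and 6 fell, with Sdc2 (syndecan 2) at 1.398 ± 0.13, Vcan (versican) at -1.22 ± 0.12 and Hyal1, a hyaluronidase, at -1.89 ± 0.17. Of 32 genes that build or edit sugar chains 7 rose and 9 fell. Chsy1, which lengthens chondroitin chains, stood at 107 and 113 FPKM in TGF-β cells and 31.2 and 30.9 FPKM in control cells (1.79 ± 0.11). Csgalnact1, which starts those chains, stood at 1.02 and 0.973 FPKM in TGF-β cells and 9.79 and 10.98 FPKM in control cells (-2.51 ± 0.15). Sulf1 and Sulf2, which remove sulfate from heparan sulfate at the cell surface, both fell (-2.29 ± 0.17 and -1.19 ± 0.09). The medians of the proteoglycan and sugar chain lists also changed sign with the scaling, and after median ratio rescaling 13 sugar chain genes rose and 4 fell.

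Growth factor genes split. Of 20 measured 8 rose and 7 fell, and 5 and 6 of these changed at least 2-fold. Hbegf, a ligand of the EGF receptor, stood at 63.5 and 66.0 FPKM in TGF-β cells and 11.3 and 13.8 FPKM in control cells (2.29 ± 0.13). Areg (amphiregulin), a ligand of the same receptor as Hbegf, went the other way, with 1.19 and 1.28 FPKM in TGF-β cells and 6.75 and 6.82 FPKM in control cells (-1.799 ± 0.23), as did Btc. Angpt1 (angiopoietin 1, a ligand of the endothelial receptor Tie2) stood at 2.61 and 1.999 FPKM in TGF-β cells and 23.2 and 21.9 FPKM in control cells (-2.84 ± 0.15). Kitlg (stem cell factor) stood at 3.31 and 3.16 FPKM in TGF-β cells and 23.8 and 20.9 FPKM in control cells (-2.46 ± 0.14). Gas6, a ligand of Axl, was the most abundant of the list and fell (-1.71 ± 0.29). Of 23 receptor tyrosine kinases 2 rose and 9 fell, or 4 and 7 after median ratio rescaling. Egfr, the EGF receptor, stood at 3.22 and 3.68 FPKM in TGF-β cells and 0.831 and 0.731 FPKM in control cells (1.32 ± 0.12). Pdgfra, a receptor of platelet-derived growth factor that marks resting fibroblasts, stood at 8.24 and 8.603 FPKM in TGF-β cells and 29.4 and 25.0 FPKM in control cells (-1.58 ± 0.17), and Fgfr2 (-1.33 ± 0.20) and Ptk7 (-1.43 ± 0.15) fell too. Pdgfrb fell (-1.35 ± 0.31, adjusted p = 0.012), but not without TGF-β replicate 1 or 2 (adjusted p = 0.0577 and 0.0665) or control replicate 1 or 2 (0.0587 and 0.0683).

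In the Wnt pathway large rises stood beside falls. Of 30 genes 11 rose, 10 of them at least 2-fold, and 7 fell, with a median change of 0.09 that was -0.21 over its genes with a mean of at least 5 FPKM. Among ligands, Wnt4 stood at 19.3 and 20.1 FPKM in TGF-β cells and 4.68 and 4.93 FPKM in control cells (1.84 ± 0.25). Rspo1, a secreted protein which amplifies Wnt signals, stood at 25.8 and 28.2 FPKM in TGF-β cells and 96.2 and 101 FPKM in control cells (-1.83 ± 0.23). The receptor gene Fzd1 was the most abundant of the list, with 219 and 209 FPKM in TGF-β cells and 57.1 and 54.9 FPKM in control cells (1.91 ± 0.34). Of the inhibitors, the secreted Sfrp4 stood at 34.8 and 49.2 FPKM in TGF-β cells and 6.74 and 6.99 FPKM in control cells (2.43 ± 0.17). Nkd1, which acts inside the cell, stood at 6.56 and 7.71 FPKM in TGF-β cells and 1.2 and 1.04 FPKM in control cells (1.94 ± 0.29). Axin2 and Lef1, known direct targets of the pathway, were singled out after their values were seen and rose (1.79 ± 0.19 and 1.27 ± 0.12). Of 32 genes of BMPs, activins and their antagonists 6 rose and 12 fell. Antagonists went opposite ways, with Fst at 42.3 and 43.6 FPKM in TGF-β cells and 6.104 and 5.14 FPKM in control cells, and Grem1, a secreted BMP antagonist, at 34.95 and 39.5 FPKM in TGF-β cells and 212 and 186 FPKM in control cells (-2.39 ± 0.19). Inhbb, a chain of activin B, fell (-1.97 ± 0.12), and Bmper, a modulator of BMPs, rose (1.12 ± 0.16).

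Of 35 guidance cues and receptors 5 rose and 14 fell, and the class 3 semaphorins, secreted ligands of plexins and neuropilins, held the largest falls. Sema3c stood at 148 and 136 FPKM in TGF-β cells and 887 and 864 FPKM in control cells (-2.62 ± 0.12). Sema3a stood at 7.04 and 5.09 FPKM in TGF-β cells and 56.7 and 58.7 FPKM in control cells (-3.07 ± 0.34). Sema3d stood at 6.396 and 5.97 FPKM in TGF-β cells and 68.9 and 70.9 FPKM in control cells (-3.303 ± 0.24). Both TGF-β libraries lay far below both control libraries for each of these. Plxnd1, a plexin receptor of the class, fell as well (-1.72 ± 0.12). Of 19 genes of vasoactive signals 4 rose and 8 fell. The vasopressin receptor Avpr1a stood at 44.95 and 37.3 FPKM in TGF-β cells and 9.33 and 9.57 FPKM in control cells (2.004 ± 0.22). The endothelin receptor Ednra stood at 0.959 and 1.105 FPKM in TGF-β cells and 5.16 and 5.29 FPKM in control cells (-1.62 ± 0.12). In prostaglandin signalling the inducible cyclooxygenase gene Ptgs2 stood at 11.01 and 11.6 FPKM in TGF-β cells and 1.29 and 1.22 FPKM in control cells (2.45 ± 0.15), and 3 of 8 genes fell, the F receptor and Pla2g2a among them. Of 29 ion channel genes 8 rose and 11 fell, where Trpc6 had the largest change and Ano1, a calcium-activated chloride channel, fell (-1.64 ± 0.26).

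**Figure D3:**
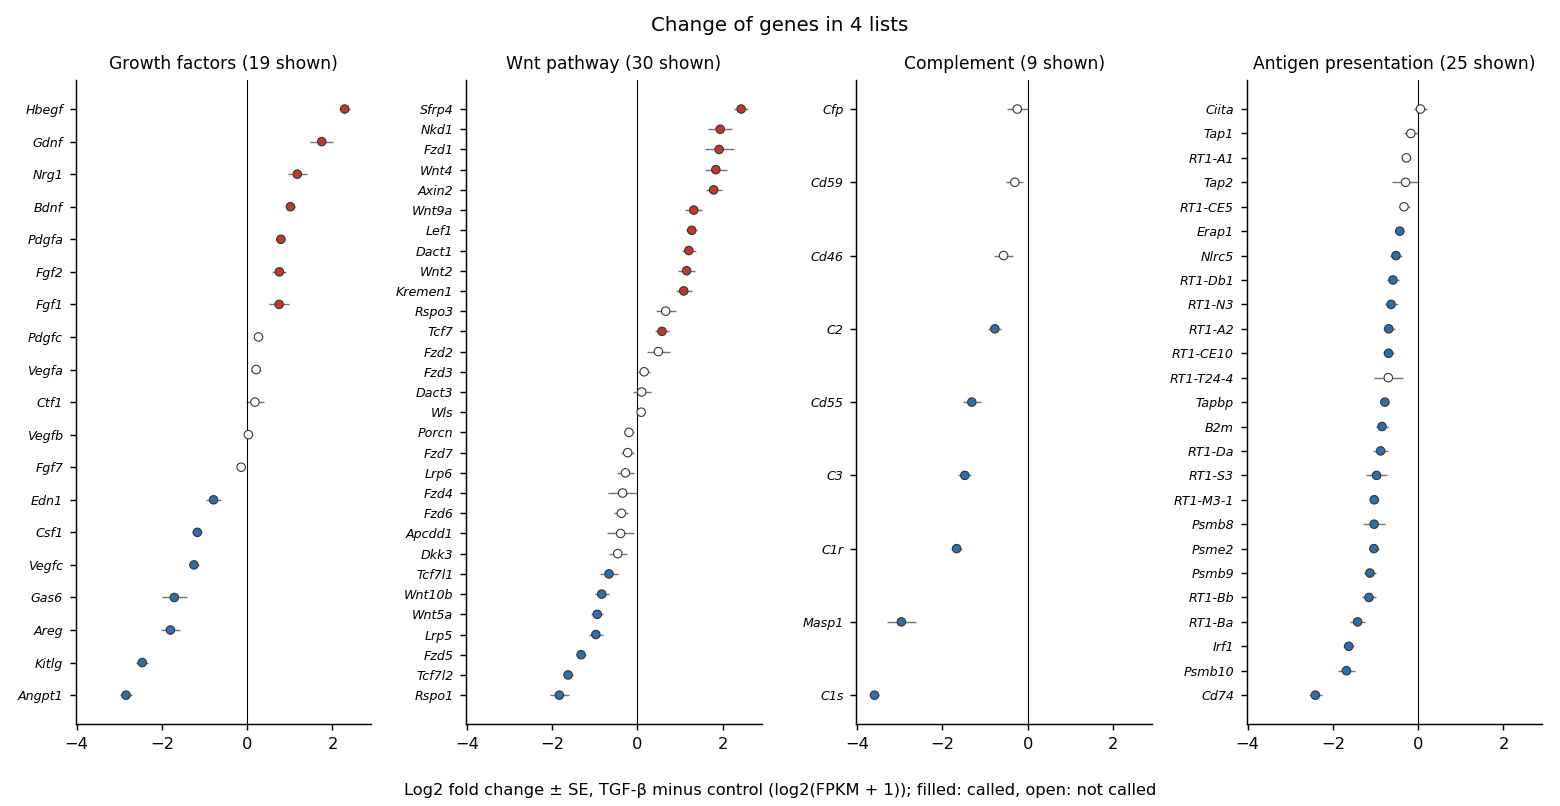
Log2 fold change (TGF-β minus control, log2(FPKM + 1)) ± SE of the genes of 4 lists, with 1 gene of the growth factor and 1 of the complement list not shown, and filled circles for genes called at an adjusted p under 0.05 and open circles for the others. In the growth factor and Wnt lists 8 and 11 genes were raised and 7 lowered in each, while in the complement and antigen presentation lists 7 and 19 were lowered and none was raised (limma, where 10.6% of all genes were raised).

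Of 27 cadherin and junction genes 7 rose and 7 fell. Ncam1, a neural cell adhesion molecule, stood at 116 and 88.8 FPKM in TGF-β cells and 39.3 and 40.7 FPKM in control cells (1.32 ± 0.15), and Cdh3, placental cadherin, at 98.3 and 96.8 FPKM in TGF-β cells and 225 and 233 FPKM in control cells (-1.22 ± 0.14). Of 20 Notch and hedgehog genes 1 rose and 6 fell, with the hedgehog receptor Ptch1 at -1.07 ± 0.12 and its co-receptor Cdon at -1.97 ± 0.23. Of 22 genes of insulin-like growth factor signalling 1 rose and 8 fell, and Igfbp4, a binding protein, stood at 4.22 and 5.38 FPKM in TGF-β cells and 12.5 and 16.3 FPKM in control cells (-1.404 ± 0.15). Of 30 feedback genes of MAP kinases 7 rose and 6 fell. The medians of the insulin-like growth factor and MAP kinase lists changed sign with the scaling. After median ratio rescaling 11 cadherin and junction genes rose and 6 fell, and 2 Notch and hedgehog genes rose and 4 fell. That rescaling gave 3 raised and 7 lowered insulin-like growth factor genes, and 8 raised and 4 lowered MAP kinase genes.

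The immune lists held many falls and few rises. Of 10 complement genes 7 fell and none was called raised by limma, at an unadjusted p under 0.05 or by limma-voom (median -1.39, -1.39 to -1.12 over the scalings tried). C1s and C1r are the proteases that start the classical pathway. C1s stood at 10.9 and 12.7 FPKM in TGF-β cells, against 160.4 and 146 FPKM in control cells (-3.59 ± 0.11). C1r stood at 128 and 133 FPKM in TGF-β cells, against 424 and 411 FPKM in control cells (-1.67 ± 0.13). Masp1, a protease of the lectin pathway (-2.96 ± 0.34), and C3, on which all pathways converge (-1.48 ± 0.15), fell too. C3 stood at 0.0713 and 0.0823 FPKM in TGF-β cells and 2.117 and 1.878 FPKM in control cells. It passed the limit only through its control libraries. Complement genes summed to 179.8 and 189.6 FPKM in TGF-β cells and 676 and 641 FPKM in control cells.

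Chemokine and cytokine genes fell in 10 and rose in 3 of 20 cases, and 10 falls were at least 2-fold. Il33, an alarmin of the interleukin 1 family whose receptor is Il1rl1, stood at 1.41 and 2.79 FPKM in TGF-β cells and 39.9 and 33.7 FPKM in control cells (-3.64 ± 0.23). Il1rl1 went the other way, with 15.9 and 15.5 FPKM in TGF-β cells and 0.346 and 0.476 FPKM in control cells (3.56 ± 0.23). Cxcl12, the ligand of Cxcr4, stood at 23.9 and 26.6 FPKM in TGF-β cells and 182 and 184 FPKM in control cells (-2.81 ± 0.61, adjusted p = 0.01). The groups lay far apart, but the call was lost without TGF-β replicate 1 or 2 (adjusted p = 0.0586 and 0.0544) and without control replicate 1 or 2 (0.0548 and 0.0536). The SE of Cxcl12 also rests on the libraries with TGF-β and MetR, where it stood at 92.1 and 17.4 FPKM. Cxcl10, an interferon-induced chemokine (-1.93 ± 0.33), and Ccl20 (-2.07 ± 0.22) fell. Ccl2, the monocyte chemokine and the most abundant of the list, stood at 424 and 502 FPKM in TGF-β cells and 159.9 and 163 FPKM in control cells (1.51 ± 0.14). Il11, a cytokine of fibrotic tissue, rose too (1.59 ± 0.18). Of 23 factors and targets of NF-kB, the transcription factor of inflammation, 15 fell and 1 rose, with 11 and 2 after median ratio rescaling. Icam1, an adhesion molecule for leukocytes, stood at 64.6 and 65.4 FPKM in TGF-β cells and 258 and 266 FPKM in control cells (-1.99 ± 0.14), and the feedback inhibitors Nfkbia (-1.56 ± 0.15), Tnfaip3 (-1.57 ± 0.21) and Irak3 (-1.54 ± 0.11) fell. Ptgs2 was the 1 gene of this list that rose.

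Antigen presentation genes fell in 19 of 25 cases with none called raised by limma, at an unadjusted p under 0.05 or by limma-voom (median -0.78, -0.78 to -0.56 over the scalings tried). B2m, the light chain of class I molecules, stood at 205 and 252 FPKM in TGF-β cells and 421 and 398 FPKM in control cells (-0.85 ± 0.13). Cd74, the chaperone of class II molecules, stood at 5.45 and 6.01 FPKM in TGF-β cells and 33.3 and 36.2 FPKM in control cells (-2.41 ± 0.16). Irf1, an interferon regulatory factor, stood at 7.59 and 7.92 FPKM in TGF-β cells and 26.2 and 25.9 FPKM in control cells (-1.63 ± 0.13). The immunoproteasome cuts peptides for class I. Of 34 proteasome genes 3 rose and 4 fell, with 19 and 4 after median ratio rescaling. Those that fell as deposited, which the antigen presentation list also holds, were subunits of the immunoproteasome and of its activator, Psmb10 (-1.68 ± 0.21), Psmb9 (-1.13 ± 0.14), Psme2 (-1.04 ± 0.11) and Psmb8 (-1.03 ± 0.25). The call of Psmb8 was lost when control replicate 1 was left out (adjusted p = 0.104) and when TGF-β replicate 1 was (0.0934), against 0.0154 with both. Several class I genes (RT1) are near-identical copies, and how their reads were divided is uncertain.

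Interferon-driven factors bind a response element whose core was searched as GAAANNGAAA on both strands. It was found before the start of 8 of 22 antigen presentation genes with an entry (36.4%), of 5.59% of all genes lowered at least 2-fold and of 0.858% of those raised at least 2-fold, against 2.48% of the genes described here and 3.29% of all promoters. Psmb10 holds it at positions 73 to 64 and 17 to 8 before the start and Psme2 at 53 to 44 (capitals, build GRCr8, chr19:50743293-50743542 and chr15:33052752-33053001, both on the minus strand). Tap1 and Tap2, the peptide transporters, hold the core too and were not called (-0.17 and -0.29).

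Psmb10: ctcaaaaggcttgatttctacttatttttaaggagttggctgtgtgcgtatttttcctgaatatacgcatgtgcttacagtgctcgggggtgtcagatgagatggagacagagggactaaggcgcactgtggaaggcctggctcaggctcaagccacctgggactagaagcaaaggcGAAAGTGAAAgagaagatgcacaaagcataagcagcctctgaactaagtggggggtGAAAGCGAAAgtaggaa

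Psme2: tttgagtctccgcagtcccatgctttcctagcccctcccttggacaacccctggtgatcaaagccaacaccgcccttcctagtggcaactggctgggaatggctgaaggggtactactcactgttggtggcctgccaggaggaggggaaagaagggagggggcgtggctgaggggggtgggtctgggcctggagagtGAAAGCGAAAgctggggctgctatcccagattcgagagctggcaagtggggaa

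Genes that mark resting and adventitial fibroblasts fell in 8 and rose in 2 of 14 cases (median -0.81, -0.81 to -0.44 over the scalings tried). Klf4, a transcription factor of quiescent cells, stood at 24.6 and 21.6 FPKM in TGF-β cells and 174 and 186 FPKM in control cells (-2.91 ± 0.16). Igfbp6, which binds an insulin-like growth factor, stood at 108 and 137 FPKM in TGF-β cells and 411 and 442 FPKM in control cells (-1.805 ± 0.25). Of 88 mesenchymal transcription factors 22 rose and 26 fell, and their median lay on both sides of 0 over the scalings tried, with 27 raised and 18 lowered after median ratio rescaling. Runx1 stood at 51.7 and 44.05 FPKM in TGF-β cells and 11.1 and 13.7 FPKM in control cells (1.87 ± 0.14), and Foxq1 rose (1.91 ± 0.12). Klf15, a glucocorticoid-induced factor, stood at 2.21 and 2.19 FPKM in TGF-β cells and 16.7 and 19.2 FPKM in control cells (-2.56 ± 0.15). Of 23 circadian and glucocorticoid genes 2 rose and 11 fell. Nr3c1, the glucocorticoid receptor, stood at 16.6 and 15.8 FPKM in TGF-β cells and 38.2 and 39.6 FPKM in control cells (-1.21 ± 0.13). Hsd11b1, which regenerates active glucocorticoid, stood at 0.548 and 0.718 FPKM in TGF-β cells and 8.03 and 6.21 FPKM in control cells (-2.31 ± 0.16), and the clock repressor Bhlhe40 rose (1.75 ± 0.11).

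As deposited most genes that copy and mend DNA fell. Of 53 genes of DNA replication and nucleotide supply 45 fell (84.9%, median -0.96), with 35 to 50 over all settings tried. Of 44 DNA repair genes 34 fell (77.3%, median -0.70), where 29.8% of all genes were lowered. After median ratio rescaling 27 of them fell, and after quantile normalization 23. The fit that kept only genes with a mean of at least 5 FPKM, and so fewer repair genes, gave 18. As deposited limma called none of either list raised, with 0 at an unadjusted p under 0.05 and 0 by limma-voom, and 1 repair gene rose after quantile normalization. Tk1, the thymidine kinase of dividing cells, stood at 9.92 and 12.2 FPKM in TGF-β cells and 39.96 and 42.1 FPKM in control cells (-1.81 ± 0.11). Mcm3, a subunit of the replicative helicase, stood at 6.29 and 8.15 FPKM in TGF-β cells and 22.8 and 23.3 FPKM in control cells (-1.56 ± 0.13). Fancd2 (-1.66 ± 0.14) and Brca1 (-1.34 ± 0.12), which act in the repair of DNA crosslinks and breaks, fell as well. Of 34 cyclins, CDK inhibitors and E2F factors 16 fell and 6 rose (14 and 9 after median ratio rescaling), with the mitotic kinase Cdk1 at -1.504 ± 0.13 and its cyclins Ccna2 and Ccnb1 at -1.5 ± 0.12 and -1.48 ± 0.19. Of 38 p53 targets and apoptosis regulators 11 rose and 14 fell, with the pro-apoptotic Pmaip1 (Noxa) at 1.96 ± 0.17 and the inflammatory caspases Casp1 and Casp4 at -2.06 ± 0.28 and -1.82 ± 0.09, and the median of that list changed sign with the scaling.

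E2F factors bind the letters TTTNNCGN in promoters of S-phase genes, where each N was taken as C or G, on both strands. The motif was found before the start of 14 of 45 replication genes with an entry (31.1%), all of which fell, against 6.84% of the genes described here, 8.23% of all genes lowered at least 2-fold and 2.58% of those raised at least 2-fold, and 3.87% of all promoters. Gins1, Mcm5 and Mcm6 are all parts of the helicase that unwinds DNA. Gins1 stood at 2.46 and 2.49 FPKM in TGF-β cells and 8.44 and 10.4 FPKM in control cells (-1.58 ± 0.17). Mcm5 stood at 3.18 and 4.07 FPKM in TGF-β cells and 11.9 and 13.1 FPKM in control cells (-1.55 ± 0.16). Mcm6 stood at 12.1 and 14.5 FPKM in TGF-β cells and 38.5 and 40.8 FPKM in control cells (-1.51 ± 0.18). Their matches are in capitals, and neighbouring matches overlap (chr3:160184670-160184919 and chr19:13488563-13488812, plus strand, and chr13:42404353-42404602, minus strand, build GRCr8).

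Gins1: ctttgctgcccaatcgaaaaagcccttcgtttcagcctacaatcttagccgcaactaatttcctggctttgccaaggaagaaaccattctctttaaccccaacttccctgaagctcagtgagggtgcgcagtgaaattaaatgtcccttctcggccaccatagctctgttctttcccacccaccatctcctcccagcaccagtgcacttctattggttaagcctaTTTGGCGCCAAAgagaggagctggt

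Mcm5: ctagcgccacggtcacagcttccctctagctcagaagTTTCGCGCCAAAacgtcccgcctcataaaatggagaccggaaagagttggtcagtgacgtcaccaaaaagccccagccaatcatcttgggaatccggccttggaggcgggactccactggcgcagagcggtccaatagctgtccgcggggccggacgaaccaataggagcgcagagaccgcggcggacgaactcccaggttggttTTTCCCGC

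Mcm6: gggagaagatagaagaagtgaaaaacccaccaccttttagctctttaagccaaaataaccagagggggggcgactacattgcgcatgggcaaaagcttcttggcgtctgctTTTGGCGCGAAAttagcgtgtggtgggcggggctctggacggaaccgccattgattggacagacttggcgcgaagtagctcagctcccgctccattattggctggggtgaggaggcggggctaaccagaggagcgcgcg

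A total of 7 motifs were searched in 6 lists, and the pairs of motif and list shown were picked from those with high shares, so the shares are descriptions. Pairs not shown were high too, such as the AP-1 site in 6 of 21 NF-kB genes (28.6%) and 2 of 6 complement genes (33.3%). For the other motifs the shares are given for genes raised at least 2-fold, genes lowered at least 2-fold, all genes described here and all promoters. The AP-1 site (TGANTCA) was in 8.58%, 6.21%, 4.22% and 6.36%. The TEAD site (CATTCC) was in 14.2%, 10.2%, 9.91% and 11.8%. The Smad site (CAGACA) was in 16.3%, 12.6%, 12.7% and 16.9%, with the share of genes raised at least 2-fold near that of all promoters. The antioxidant response core (TGACNNNGC) was in 12.4%, 12%, 12.9% and 10.2%. Matches of different motifs overlapped most often for the AP-1 site and the antioxidant response core, in 30 promoters, and E2F and interferon matches overlapped in 2.

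**Figure D4:**
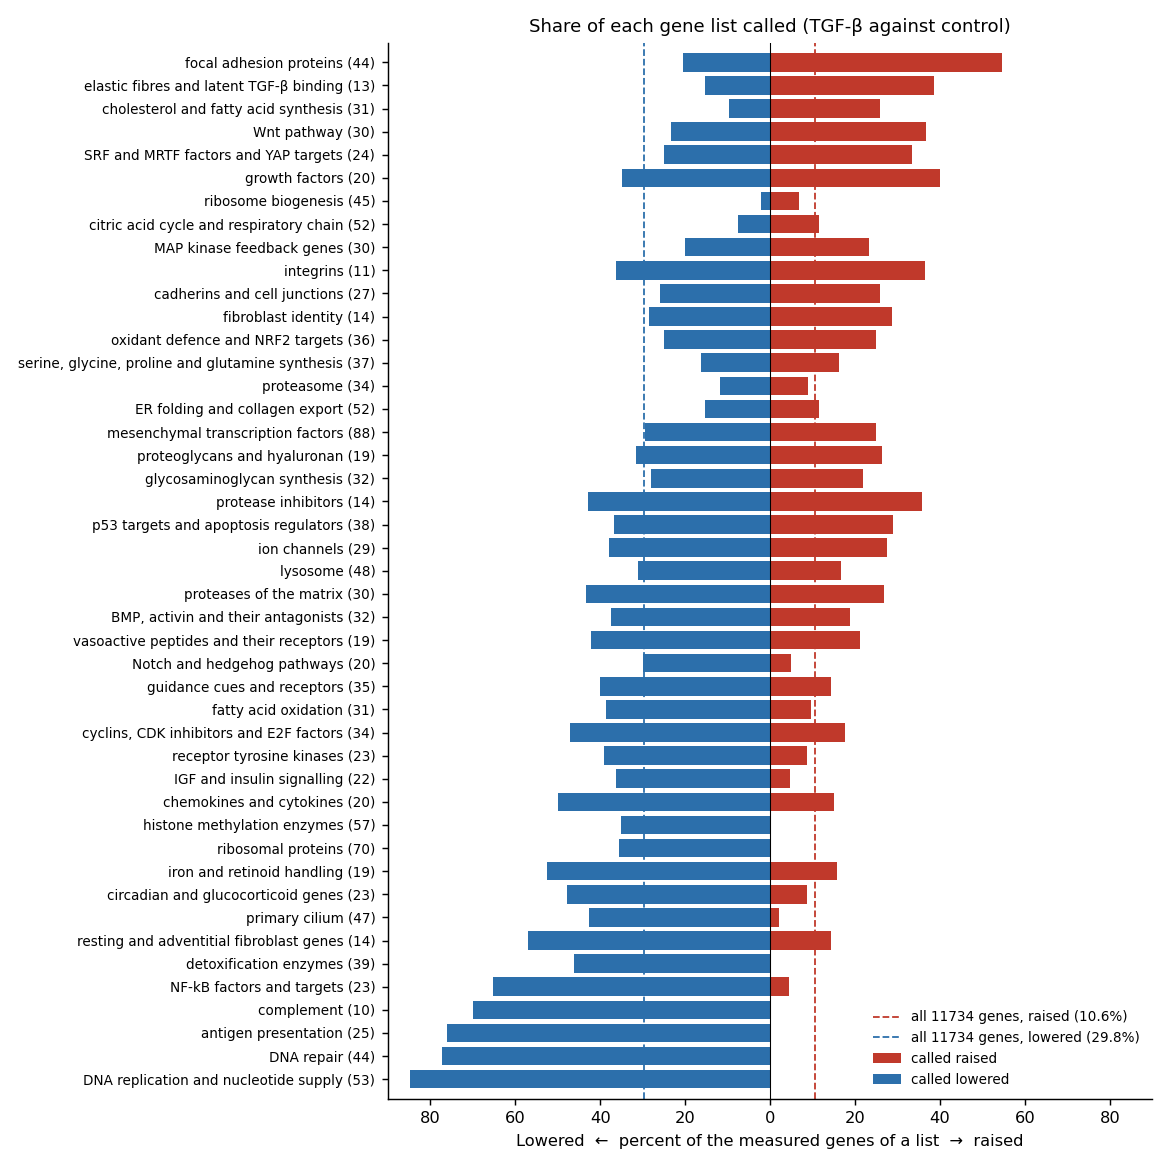
Share of measured genes called raised (bars to the right) and lowered (bars to the left) in gene lists with at least 10 measured genes, with dashed lines at the 10.6% of all 11734 genes raised and the 29.8% lowered. Focal adhesion genes reach furthest to the right (54.5%), and DNA replication (84.9%), DNA repair (77.3%), antigen presentation (76%) and complement genes (70%) reach furthest to the left.

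In metabolism the enzymes that detoxify aldehydes and foreign compounds fell in 18 of 39 cases, none was called raised by limma as deposited (0 at an unadjusted p under 0.05 and 0 by limma-voom), and 2 rose and 15 fell after median ratio rescaling. Aldh2, the mitochondrial aldehyde dehydrogenase, stood at 75.3 and 78.9 FPKM in TGF-β cells and 228 and 232 FPKM in control cells (-1.57 ± 0.10). Aox1, aldehyde oxidase, stood at 2.64 and 2.35 FPKM in TGF-β cells and 51.7 and 57.04 FPKM in control cells (-3.98 ± 0.18), and Ephx1, an epoxide hydrolase, fell (-1.68 ± 0.16). Of 19 genes that handle iron and retinoids 10 fell and 3 rose, or 9 and 5 after median ratio rescaling. Cp, the copper enzyme ceruloplasmin that oxidizes iron, stood at 2.89 and 3.22 FPKM in TGF-β cells and 25.3 and 23.97 FPKM in control cells (-2.66 ± 0.11). Lcn2, which binds iron carriers of bacteria, stood at 0.139 and 0.4801 FPKM in TGF-β cells and 9.85 and 7.41 FPKM in control cells (-2.88 ± 0.20), and Steap2, a metalloreductase, fell (-2.002 ± 0.19). Of 36 oxidant defence genes 9 rose and 9 fell, or 16 and 3 after median ratio rescaling. Among those that rose was Txn1, thioredoxin, at 630.3 and 766 FPKM in TGF-β cells and 377 and 396 FPKM in control cells (0.85 ± 0.12).

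Of 31 genes that make cholesterol and fatty acids 8 rose and 3 fell (12 and 0 after median ratio rescaling), with Cyp51, a demethylase of sterol synthesis, at 371 and 378 FPKM in TGF-β cells and 164 and 155 FPKM in control cells (1.23 ± 0.14). Fatty acid oxidation genes fell in 12 and rose in 3 of 31 cases, with Hadh, which oxidizes acyl chains in mitochondria, at -1.09 ± 0.19 and Acsl5, which activates fatty acids, at 1.15 ± 0.15. After median ratio rescaling 4 of these fell and 4 rose. A minority of genes of the citric acid cycle and respiratory chain (6 raised and 4 lowered of 52), of ribosome biogenesis (3 and 1 of 45) and of folding and collagen export in the endoplasmic reticulum (6 and 8 of 52) were called as deposited. After median ratio rescaling the first of these lists had 20 raised and 0 lowered, ribosome biogenesis 10 and 1, and the last 22 and 3.

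Other cell machinery lay nearer the background. Ribosomal protein genes fell in 25 of 70 cases (35.7%, none called raised by limma or limma-voom and 1 raised at an unadjusted p under 0.05), with 15 lowered and 2 raised after median ratio rescaling, and their many near-identical copies leave the split of reads uncertain. Of 48 lysosomal genes 8 rose and 15 fell, with 14 raised and 6 lowered after median ratio rescaling, and besides Neu1 the proton pump subunit Atp6v1b2 rose (1.48 ± 0.11). The medians of the lysosome, citric acid cycle, ion channel and prostaglandin lists lay on both sides of 0 over the scalings tried. Genes of the primary cilium fell in 20 of 47 cases (42.6%) and 9 did after quantile normalization, with the transport protein Ift88 at -1.06 ± 0.13 and Pkd2, a cilium and endoplasmic reticulum cation channel, as the 1 rise (1.15 ± 0.10). Of 57 histone methylation enzymes 20 fell as deposited (35.1%, none called raised by limma, limma-voom or at an unadjusted p under 0.05). After median ratio rescaling 6 fell and 2 rose, and after quantile normalization 7 fell and 4 rose. Ezh2, which methylates lysine 27 of histone H3, stood at 10.5 and 10.5 FPKM in TGF-β cells and 20.9 and 20.9 FPKM in control cells (-0.93 ± 0.14).

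Several of these genes had different levels in the 3 groups that received TGF-β, given here side by side with no test because the comparisons share libraries. No RNA library is labelled with a control small interfering RNA, so transfection and the loss of Hoxc8 cannot be told apart. Gadd45g, a stress and growth arrest gene, stood at 2099.9 and 2142 FPKM with TGF-β and MetR, 38.97 and 38.6 FPKM with TGF-β and siHoxc8, 322 and 407 FPKM with TGF-β alone and 23.3 and 21.1 FPKM in control cells. Trpc6 stood at 12.2 and 7.65 FPKM with TGF-β and MetR, 0.5005 and 0.545 FPKM with TGF-β and siHoxc8, 21.9 and 23.6 FPKM with TGF-β alone and 1.88 and 1.59 FPKM in control cells. Ggt1 stood at 26.2 and 27.2 FPKM with TGF-β and MetR, 172 and 181 FPKM with TGF-β and siHoxc8, 164 and 167 FPKM with TGF-β alone and 16.5 and 16.9 FPKM in control cells. Ggt1 was thus nearer its control level with MetR and Trpc6 with siHoxc8. Ptgfr stood at 2.84 and 1.41 FPKM with TGF-β and MetR, 20.6 and 21.3 FPKM with TGF-β and siHoxc8, 0.719 and 0.772 FPKM with TGF-β alone and 27.1 and 25.8 FPKM in control cells. Pmepa1, a feedback inhibitor of the pathway, lay within a narrow range in all that received the cytokine, at 286 and 339 FPKM with TGF-β and MetR, 354 and 338 FPKM with TGF-β and siHoxc8, 356 and 364 FPKM with TGF-β alone and 44.6 and 42.1 FPKM in control cells.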

How the data were processed

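RNA of 8 libraries in 4 groups of 2 was analysed from the FPKM values the authors deposited in 1 table. Trim Galore, Bowtie2 2.3.5.1, featureCounts, deepTools and build rn6 are named in the submitters' processing notes, but no source used here gives the annotation or strand setting, so overlapping or antisense genes may share reads. The values came out as whole reads for 100.0% of entries (tolerance 0.02 reads), which gave the depths.

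limma 3.58.1 in R 4.3.3 was fitted to log2(FPKM + 1) of all 8 libraries (empirical Bayes with a mean trend, residual df 4) for the 12315 genes that reached 1 FPKM in 2 or more libraries, with a Benjamini-Hochberg adjusted p under 0.05 as the threshold and two-sided tests. It was also run on simulated data with normal noise and few changed genes. Many genes were called here, so that run does not measure its accuracy on these data. With 2 libraries against 2 an exact permutation test cannot go below p = 0.333.

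The text names genes by a written rule. It draws on called genes with a mean of at least 5 FPKM in the higher group and no overlap between TGF-β and control libraries. From these come the 30 largest rises, 30 largest falls and 12 largest gains and losses in FPKM. Each of 54 lists adds up to 5 called genes by size of change and the most abundant one. For the lists there was no minimum and no condition on overlap. Axin2, Lef1, Fhl1, Fhl2, Fblim1, Svil, Tap1 and Tap2 were added after their values were seen. The genes, lists and tests were chosen with earlier results of these data known. Promoters are the 250 bases before each RefSeq start (GRCr8), matched by symbol for 8454 of 11734 genes, and are not on the build of the files. Alternatives were another pseudocount, filter, scaling, set of libraries, replicate block, robust fit and each library left out, and, added after seeing the data, limma-voom on recovered reads and removal of a length trend. The planned count test was replaced by limma-voom because the deposited unit is FPKM. Some values are not reported here.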

Additional observations from a re-analysis of the deposited data

How the results depend on the processing

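The number of raised genes, 1244 as deposited, was 2240 after median ratio rescaling, 2032 after quantile normalization and 2308 with the length trend removed, and that of lowered genes, 3499, was 2123, 2096 and 2078. Leaving out 1 library gave 608 to 1726 raised and 1686 to 4495 lowered genes, the lowest without control replicate 1 (608 and 1686), with 642 and 1811 without control replicate 2, where the lone library of a group is assumed to vary like the other groups. Genes raised at least 2-fold numbered 340, 260 with a mean of at least 5 FPKM, 519 after quantile normalization and 318 to 343 without 1 library. Genes lowered at least 2-fold numbered 943, 557 with a mean of at least 5 FPKM, 572 after quantile normalization, 614 with the length trend removed, 1315 with a pseudocount of 0.1, 1351 by limma-voom and 889 to 963 without 1 library. The setting with a mean of at least 5 FPKM fitted only 8972 of the 11734 genes, so its counts come from fewer genes. Raised genes were 26.2% of calls as deposited, 51.3% after median ratio rescaling, 49.2% after quantile normalization and 52.6% with the length trend removed. The cause of these shifts was not tested.

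The replicate numbers do not pair the TGF-β and control libraries (correlation 0.00982 between same-numbered deviations, with 0.202 between TGF-β with MetR and TGF-β alone), and with the replicate block 1253 genes were raised and 3445 lowered. Of 162 genes given with values 157 were called and 150 kept the call under every one of the 18 settings that fitted them, where 28 of the called genes could not be fitted with a mean of at least 5 FPKM. The exceptions are Erg, Myh11, Pdgfrb, Cxcl12, Psmb8, Fblim1 and Eef1a1, whose values are given above. Among genes not called, the change turned positive for Bgn (0.122 after median ratio rescaling, 0.101 with the length trend removed), Krt8 (0.0379 after median ratio rescaling, against -0.282 and an adjusted p of 0.0194, called lowered, after quantile normalization), Tap1 (0.0359 after median ratio rescaling, 0.0658 after quantile normalization, 0.102 with the length trend removed) and Tap2 (0.0224 after quantile normalization). Fhl1, also not called, was called raised under the settings given above. A count test on the deposited values was not run. With 2 libraries a group, changes of low genes and small changes are the least certain, and the reads behind a value limit genes near 1 FPKM most.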
